A study of Homo sapiens with 12 samples.

Results

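The translation initiation and elongation factors were examined as 1 group of genes in 12Z, a human line of immortalized cells from endometriosis that is described as epithelial. The group holds 54 of the 60617 genes in the count tables. Members were chosen by name: protein-coding genes whose symbol starts with EIF1 to EIF6, without the EIF2AK kinases, the EIF4EBP repressors and any gene of the Y chromosome, plus EEF1A1, EEF1B2, EEF1D, EEF1G, EEF2 and PABPC1. The rule uses names alone, although the group was picked for study with earlier results of these data known. The data are mRNA-seq counts from 12 libraries, 3 in each of 4 groups. The Viperin + Insulin group received the pCAG Viperin plasmid and insulin, the Viperin group that plasmid and vehicle, the Insulin group an empty vector and insulin, and the Control group an empty vector and vehicle. Insulin was given at 100 nM in serum-free medium after 4 h of serum starvation, and RNA was taken 24 h later, so every group, Control included, was transfected and kept without serum. Viperin, encoded by RSAD2, is an interferon-inducible antiviral enzyme. The plasmid was delivered transiently, so each library pools transfected and untransfected cells, and the pCAG plasmid carries a strong ubiquitous promoter. Most descriptions name a pCAG empty vector, and 1 names pBabe. The methods describe the 3 libraries of a group as independent experiments.

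Translation starts when eIF2, loaded with GTP and initiator tRNA, joins the small ribosomal subunit together with eIF3, eIF1, eIF1A and eIF5. The eIF4 factors bind the 5′ cap of the mRNA, unwind its leader and recruit that subunit, while eIF2B reloads eIF2 with GTP. The eEF1 factors then deliver aminoacyl-tRNA, eEF2 moves the ribosome along the mRNA, and poly(A)-binding protein ties the tail to eIF4G. Insulin acts on this machinery through PI3K, AKT and mTORC1. Of these, mTORC1 is known for phosphorylating regulators of the cap-binding and elongation steps. The mRNAs of many elongation factors, ribosomal proteins and PABPC1 belong to the 5′ terminal oligopyrimidine class, whose leader opens with a C followed by an unbroken run of pyrimidines and whose translation depends on mTORC1.

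The first bases of the members' transcripts are shown here because the 5 members that fell with insulin and have an annotated RefSeq start shared a pattern in them. Each sequence runs 5′ to 3′ over 30 bases around an annotated RefSeq start on GRCh38.p14, with 10 genomic bases before the start. The capitals are the first 5 transcribed bases. These are the 5 members that fell with insulin and have an entry in the RefSeq promoter table:
EIF4B (chr12:53006446-53006475, plus strand): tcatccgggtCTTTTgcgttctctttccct
EEF1A1 (chr6:73521013-73521042, minus strand): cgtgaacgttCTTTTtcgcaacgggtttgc
EEF2 (chr19:3985444-3985473, minus strand): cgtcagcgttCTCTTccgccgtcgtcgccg
EIF4A2 (chr3:186783567-186783596, plus strand): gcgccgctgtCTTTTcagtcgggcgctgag
EIF3D (chr22:36529147-36529176, minus strand): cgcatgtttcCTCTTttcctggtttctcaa

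Members that rose with insulin are set against them with the same window:
EIF5 (chr14:103334227-103334256, plus strand): ggcgttgttcAGTCAgagcgagaacattcc
EIF4G2 (chr11:10807977-10808006, minus strand): tgtcggaagcACTTCcctaacttgcgcctg
EIF3B (chr7:2354817-2354846, plus strand): tcgcacgcacATGGCtgggctgtagccgtc
EIF2S1 (chr14:67360318-67360347, plus strand): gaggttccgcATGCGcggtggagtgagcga
EIF2B2 (chr14:75002911-75002940, plus strand): cgcccgccccGGAAGtgcaaactgtgtggt
EIF5A2 (chr3:170908618-170908647, minus strand): cccgtctcttGGAACtgccgcggccgccac
EIF3M (chr11:32583821-32583850, plus strand): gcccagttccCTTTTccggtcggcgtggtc

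In all 5 of the first set, a C and at least 4 further pyrimidines open the transcript. In the second set only EIF3M opens in that way. EIF5 and EIF4G2 each have a further RefSeq start, and it begins with a purine in both genes.

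The libraries held 25979022 to 46889002 counts assigned to genes, of which the members took 514025 to 869621. RSAD2, the check of the plasmid, had 10862 to 28665 counts in the 6 libraries with the Viperin plasmid and 69 to 183 in the 6 with empty vector. Of the epithelial markers, KRT8 lay between 1184 and 1413 CPM (counts per 1000000 assigned counts, here without further scaling) and KRT18 and KRT19 were also abundant. EPCAM did not exceed 0.832 CPM, and CLDN7 and ELF3 were at or near 0. The CPM of tested genes and of summed markers given below were also scaled by the TMM method. Stromal genes such as VIM, COL1A1 and COL3A1 were abundant. In Control library 1, 13.9% of reads mapped to more than 1 place, and in Viperin library 3, 12.1%, against 9.44% to 10.99% in the other 10 libraries.

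Members of this group are abundant mRNAs. Together they took 1.88% ± 0.021 of all counts in Viperin + Insulin, 1.94% ± 0.0080 in Viperin, 1.92% ± 0.0050 in Insulin and 1.996% ± 0.019 in Control (SD, n = 3 each). In every Control library the share was above that of every other library, and the Viperin + Insulin libraries were the lowest. EEF1A1, which carries aminoacyl-tRNA to the ribosome, alone gave 25.6% ± 0.689, 27.6% ± 0.409, 25.9% ± 0.178 and 28.8% ± 0.328 of the member counts in the same order of groups. Per kilobase of the Ensembl canonical transcript, EEF1A1 stood first with a mean level of 1486 CPM over the 12 libraries. The translocase EEF2 followed with 916 CPM per kilobase and PABPC1 with 441. By assigned counts, the most abundant initiation factor was EIF4G2, a relative of the eIF4G scaffold that lacks the eIF4E site, with 329 CPM per kilobase. Next were the helicase EIF4A2 with 254 and the eIF3 subunit EIF3I with 199. EIF5A, the hypusinated factor that relieves stalled ribosomes, stood at 200 CPM per kilobase and the start codon factor EIF1 at 165. Within the other families the highest were EIF2S2, the beta subunit of eIF2, with 78.9 CPM per kilobase and EIF2B4, the delta subunit of eIF2B, with 31.8.

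A few members cannot be read at face value. EEF1G, a structural subunit of eEF1, had 0 counts in every library, which allows up to 0.115 CPM in the shallowest one. However, 99.7% of its exonic bases are shared with an overlapping gene model on the same strand, ENSG00000255508, and read pairs that match both are assigned to neither. EIF4E1B, an oocyte cap-binding protein, had 1 count in all libraries together. These are the members outside the filter of at least 1 count per library on average, and 52 of 54 passed it. The lowest that passed were EIF3CL, with 1 to 21 counts per library, and EIF2S3B, with 16 to 42. EIF3CL and EIF3C (155 to 288 counts) are near-identical copies, EIF5AL1 (181 to 335 counts) is a copy of EIF5A, and EIF2S3B one of EIF2S3, so reads can be split or lost among them. EIF4A1 reached only 67 to 171 counts, and 47.4% of its exonic bases lie in other gene models of its strand, SENP3-EIF4A1 among them. The ratio of EIF4A1 to EIF4A2 is therefore not read here, nor are the ranks of EIF4A1 and EIF3C among the initiation factors.

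Insulin was set against vehicle over both plasmids, with 6 libraries on each side. EEF1A1, EEF2, PABPC1, EIF4B and 3 further members fell with insulin, and members of each initiation family and of the eIF5A and EIF6 group rose. At an adjusted p under 0.05 in edgeR's quasi-likelihood test, 21 of 52 members rose and 7 fell, or 53.8% of the members in either direction. Over all 23041 genes tested, 5.76% rose and 5.97% fell, 11.7% in all. The median log2 fold change was 0.07 over the members and 0.00 over all genes (-0.0018). The changes of the called members were small, between a fall of 13.5% (EIF4B) and a rise of 17.2% (EIF5AL1, a low-count copy). The low-count EIF2S3B, which did not pass, stood at -15.7%. At an adjusted p under 0.001, 7 members rose and 4 fell, against 1.76% and 2.17% of all genes. The 6 insulin libraries lay wholly above the 6 vehicle libraries for 6 members and wholly below them for 4, against 2.12% and 1.99% of all genes. Of the 28 calls, 17 held whichever single library was left out. The count of members that fell was 4 instead of 7 without Insulin library 2, without Viperin library 2 or 3, or without Viperin + Insulin library 2 or 3, and the 4 that fell at 0.001 were kept in each case. As the cells were measured in bulk, a lower mRNA level per cell and a smaller share of cells with a high level cannot be told apart. The mitochondrial share of counts moved with insulin too, at 4.28% to 5.18% in insulin libraries and 4.82% to 6.64% in vehicle libraries, and its part in these changes was not tested.

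**Figure D1:**
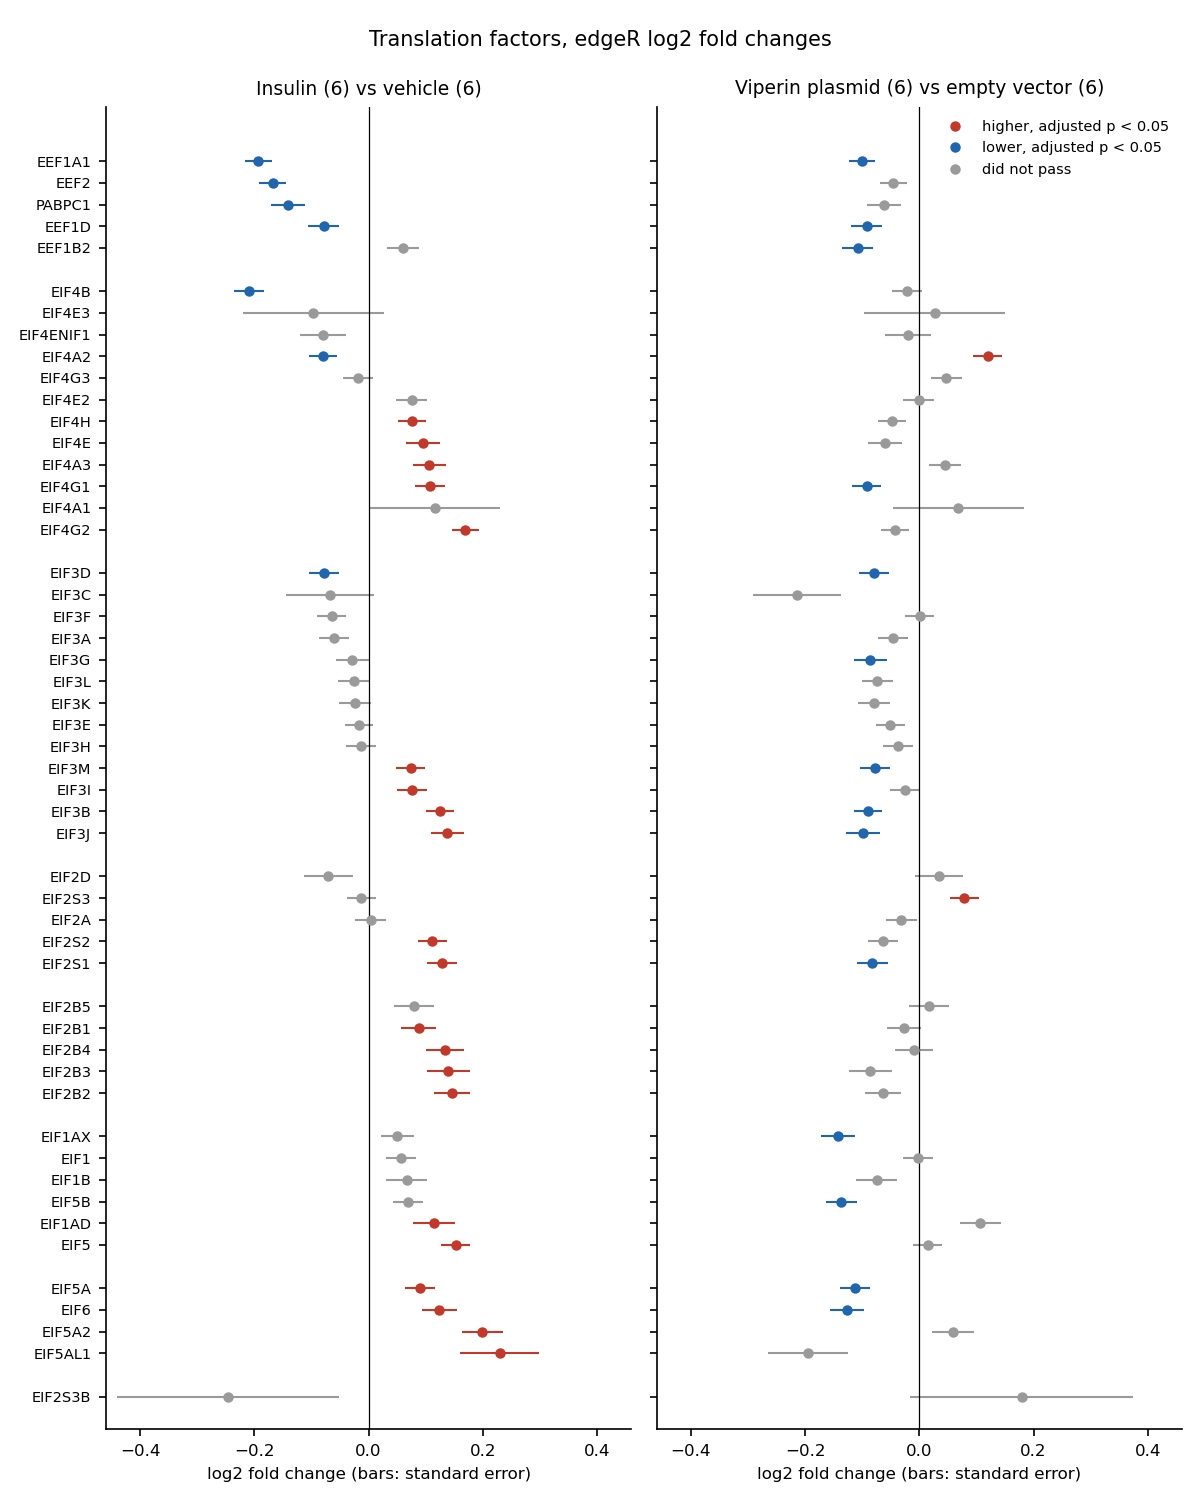
Log2 fold changes (points) with standard errors (bars) for 51 of the 52 tested members, ordered by role from elongation factors at the top to eIF5A and EIF6, with EIF2S3B last; EIF3CL is left out for its wide error. The left panel shows insulin against vehicle and the right panel Viperin plasmid against empty vector, 6 libraries on each side. Red points are higher and blue points lower at an adjusted p under 0.05, and in the left panel 4 of the 5 elongation and PABPC1 members are blue while no eIF2B member is.

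Of the 5 elongation and PABPC1 members tested, 4 fell and none rose at an adjusted p under 0.05 in edgeR. EEF1A1 had 4913, 4611 and 4717 CPM in Viperin + Insulin and 4967, 4995 and 5005 CPM in Insulin. It had 5420.1, 5361 and 5181 CPM in Viperin and 5783, 5725 and 5942 CPM in Control. All 6 insulin libraries were below all 6 vehicle libraries, and the log2 fold change was -0.19 ± 0.02 (SE, adjusted p = 1.31e-09 in edgeR). EEF2 had 2681, 2769.9 and 2585 CPM in Viperin + Insulin and 2757, 2804 and 2749 CPM in Insulin. Its vehicle libraries read 3000.0, 2983 and 3062 CPM in Viperin and 3069, 3027 and 3222 CPM in Control. Again the sides did not overlap, and EEF2 fell by 0.17 on the log2 scale (SE 0.02, adjusted p = 1.21e-07 in edgeR). PABPC1 read 1169.7, 1225 and 1162 CPM in Viperin + Insulin and 1236, 1200.5 and 1200.3 CPM in Insulin. In Viperin it read 1285, 1316 and 1243 CPM, and in Control 1248, 1352 and 1493 CPM. PABPC1 was thus lower in every insulin library than in any vehicle library, although its Control libraries were widely spread (log2 fold change -0.14 ± 0.03, adjusted p = 8.36e-04 in edgeR). EEF1D, an exchange factor for eEF1A, fell by 5.30% with an adjusted p of 0.0414 in edgeR, a call lost when any 1 of 9 libraries was left out. EEF1B2, the other exchange factor measured, did not pass (log2 fold change 0.06 ± 0.03, adjusted p = 0.166 in edgeR), and it went the opposite way from the rest of its role group.

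**Figure D2:**
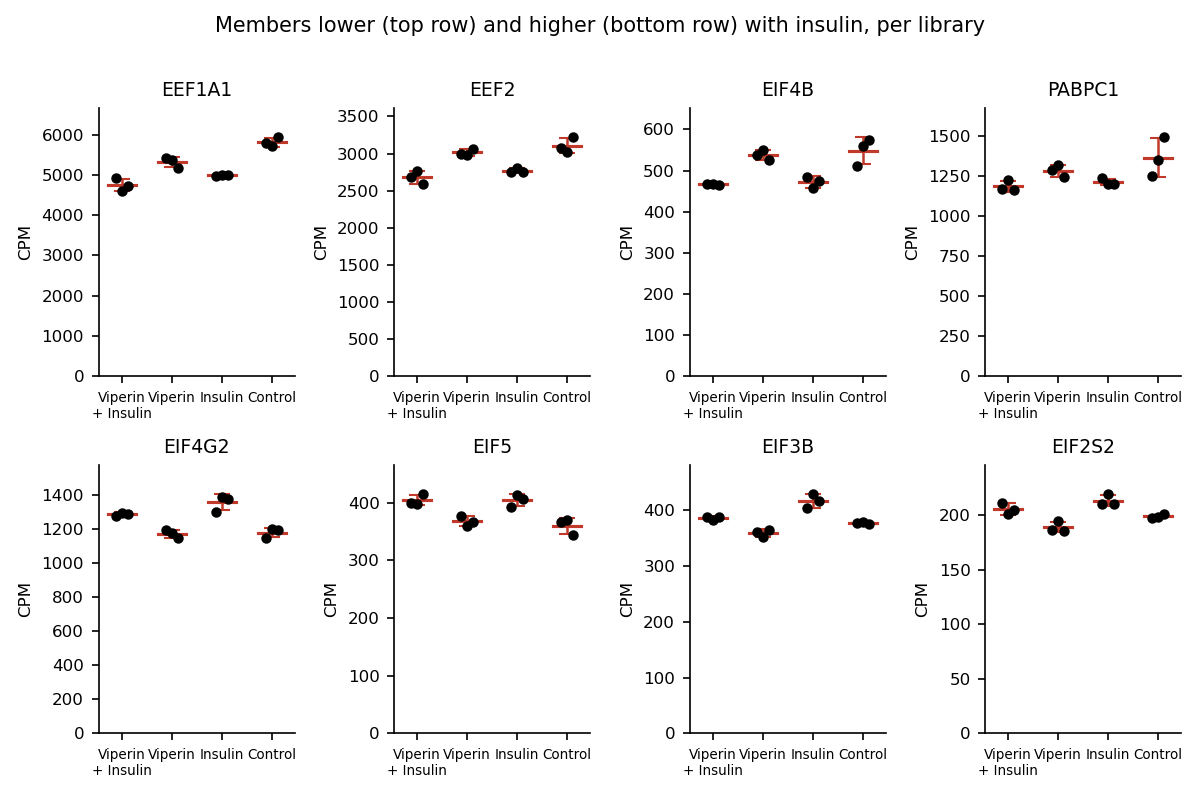
TMM-scaled CPM per library (black points, 3 per group) with group means and SDs (red) for members that fell with insulin in the top row and members that rose in the bottom row. Each vertical axis starts at 0. In all 8 panels the 6 insulin libraries (Viperin + Insulin and Insulin) lie wholly on 1 side of the 6 vehicle libraries (Viperin and Control), and the distance between them is small against the level itself.

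Among the 12 cap-binding and eIF4 members tested, 5 rose and 2 fell with insulin. EIF4B, the cofactor that stimulates the eIF4A helicase and a target of S6 kinase, gave the steepest fall of the group. It had 469, 468 and 466 CPM in Viperin + Insulin and 484, 457 and 475 CPM in Insulin, against 538, 549 and 526 CPM in Viperin and 511, 559.6 and 575 CPM in Control. No insulin library reached the lowest vehicle library, and the log2 fold change was -0.21 ± 0.03 (adjusted p = 1.94e-09 in edgeR). EIF4A2 fell by 5.37% (adjusted p = 0.023 in edgeR), but its sides overlapped and the call was lost when any 1 of 6 libraries was left out. EIF4G2 moved the other way. It read 1276, 1297 and 1291 CPM in Viperin + Insulin and 1302, 1390.4 and 1379 CPM in Insulin, above the 1192, 1175 and 1148 CPM in Viperin and the 1146, 1198 and 1193 CPM in Control. The increase was 0.17 ± 0.02 on the log2 scale (adjusted p = 1.19e-07 in edgeR) with no overlap. The paralogs of EIF4G2 differed. EIF4G1, the main eIF4G scaffold, rose by 7.75% (adjusted p = 0.00166 in edgeR), while EIF4G3 stood at -0.02 ± 0.03 on the log2 scale (adjusted p = 0.782 in edgeR). EIF4A3, the helicase of the exon junction complex, rose by 7.66% (adjusted p = 0.0057 in edgeR), with insulin libraries at 141 to 149 CPM and vehicle libraries at 119 to 139.6 CPM. The cap-binding protein EIF4E rose by 6.83% and EIF4H, a further helicase cofactor, by 5.41%, and each call was lost when any 1 of 5 libraries was left out. The EIF4E relatives did not pass: EIF4E2 stood at 0.08 ± 0.03 on the log2 scale (adjusted p = 0.0608 in edgeR) and EIF4E3, at 48 to 116 counts, at -0.10 ± 0.12 (adjusted p = 0.737 in edgeR).

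The eIF2 and eIF2B groups had 6 members that rose and none that fell at an adjusted p under 0.05 in edgeR, with 4 members without a call. In eIF2B 4 of 5 rose, and in the eIF2 group 2 of 5. The eIF2 group holds the subunits EIF2S1, EIF2S2 and EIF2S3 and the alternative initiator tRNA carriers EIF2A and EIF2D. Neither of these carriers passed. EIF2S1, the eIF2 alpha subunit that stress kinases phosphorylate, had 221, 216 and 230.5 CPM in Viperin + Insulin and 229.8, 252 and 238 CPM in Insulin. Its vehicle libraries read 209, 213 and 199 CPM in Viperin and 208, 224 and 215 CPM in Control, so that the sides overlapped slightly (log2 fold change 0.13 ± 0.03, adjusted p = 3.1e-04 in edgeR). EIF2S2 rose by 8.03% with no overlap between the sides, at 200.9 to 219 CPM with insulin and 186 to 200.7 CPM with vehicle (adjusted p = 0.00115 in edgeR). EIF2S3, the gamma subunit, did not follow, with a log2 fold change of -0.01 ± 0.03 (adjusted p = 0.85 in edgeR). In eIF2B, EIF2B2 rose by 10.7%, EIF2B3 by 10.2% and EIF2B4 by 9.73% (adjusted p = 6.1e-04, 0.00739 and 0.0031 in edgeR), and these calls held without any single library. EIF2B1 rose by 6.27% with an adjusted p of 0.0454 in edgeR, which was lost when any 1 of 9 libraries was left out. EIF2B5, the catalytic subunit, stood at 0.08 ± 0.04 on the log2 scale and did not pass (adjusted p = 0.152 in edgeR). The median log2 fold change of the 5 eIF2B members was 0.13.

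Of the 14 eIF3 genes tested, 4 rose, 1 fell and 9 did not pass, and their median log2 fold change was -0.02. The near-identical copies EIF3C and EIF3CL, which cannot be read at face value, are among the 9. Over all genes 5.76% rose and 5.97% fell, so 1 fall in 14 is close to that share. EIF3B, a scaffold of the eIF3 core, had 387, 383 and 389 CPM in Viperin + Insulin and 404, 429 and 416 CPM in Insulin, against 362, 351 and 364 CPM in Viperin and 377, 378 and 376 CPM in Control. All insulin libraries were above all vehicle libraries (log2 fold change 0.12 ± 0.02, adjusted p = 1.2e-04 in edgeR). EIF3J, the loosely bound subunit, rose by 10.0% (adjusted p = 4.74e-04 in edgeR), with insulin libraries at 148 to 169 CPM and vehicle libraries at 131 to 159 CPM. EIF3I rose by 5.36% and EIF3M by 5.24%, and EIF3D, which can itself bind the cap of some mRNAs, fell by 5.29%. Those last 3 calls had adjusted p-values of 0.0365 to 0.047 in edgeR and were each lost when any 1 of 8 to 10 libraries was left out.

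Members of the start codon scanning group and of the eIF5A and EIF6 group moved upward or did not pass. EIF5, the GTPase activator of eIF2, had 400.5, 398 and 415 CPM in Viperin + Insulin and 393, 413 and 407 CPM in Insulin. It had 377, 359.6 and 367 CPM in Viperin and 367, 369.7 and 344 CPM in Control, all below the insulin libraries (log2 fold change 0.15 ± 0.03, adjusted p = 4.82e-06 in edgeR). EIF1AD rose by 8.26%, a call lost when any 1 of 4 libraries was left out. It is placed in this group by its name, and a part in start codon choice is not implied. EIF1 and EIF1B, which guard that choice, had log2 fold changes of 0.06 ± 0.03 and 0.07 ± 0.04 without passing. All 4 members of the eIF5A and EIF6 group rose. The call of EIF5AL1 was lost without Control library 3, Viperin library 2 or Viperin + Insulin library 1 (adjusted p up to 0.0621 in edgeR). EIF5A2, the less widely expressed eIF5A isoform, had 46.7, 51.6 and 51.2 CPM in Viperin + Insulin and 46.7, 53.7 and 51.0 CPM in Insulin, against 48.7, 43.9 and 44.5 CPM in Viperin and 41.9, 40.5 and 42.6 CPM in Control. Only Viperin library 1 reached into the insulin range, and the increase was 14.8% (adjusted p = 3.34e-05 in edgeR). EIF6, which keeps large ribosomal subunits from joining early, rose by 8.98% (adjusted p = 0.00202 in edgeR). EIF5A rose by 6.49%, and the call was lost without Insulin library 2 (adjusted p = 0.0784 in edgeR).

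The first bases of the transcripts differed between the members that fell and those that rose, a pattern noticed with the results known and not tested. Of 54 members, 45 had an entry in the RefSeq promoter table, with 62 starts, and EEF1D, EIF2S2, EIF3A, EIF3CL, EIF3E, EIF3G, EIF3H, EIF3L and PABPC1 had none. A C followed by at least 4 pyrimidines was read on the transcribed strand from a start position. It stood at 1 or more starts of 13 of the 45 members (28.9%). Counted in the same way, it stood in 5.14% of all 27305 symbols in the table and 6.90% of the 13352 tested genes with an entry. Counted per start, it stood at 4.07% of all 35116 entries. Among the members with an entry, such a start was found in 5 of 5 that fell with insulin, in 1 of 20 that rose and in 7 of 18 without a call. Of these 5, EIF4B, EEF1A1 and EEF2 kept their call without any single library. EIF4A2 and EIF3D did not. Of the 13 members with such a start, 1 rose and 5 fell, with a median log2 fold change of -0.07. Of the 30 tested members without it, 19 rose and none fell at an adjusted p under 0.05 in edgeR, with a median of 0.10. Over all tested genes the same split was weaker: of 921 genes with such a start 6.19% rose and 11.8% fell, and of 12431 without it 8.29% rose and 7.58% fell. EEF1B2, EIF2A, EIF2D, EIF2S3, EIF2S3B, EIF3F and EIF3K carry such a start and had no insulin call, so the first bases did not mark every member. RefSeq starts can differ from those used in 12Z cells, which were not measured. The E-box CACGTG, a palindrome that reads alike on both strands, was sought between 250 bases before and 50 bases after a start. It lay there in 10 of the 45 members (22.2%), against 8.77% of all symbols (7.26% of all entries) and 11.8% of the tested genes with an entry. Of these 10 members 6 rose (EIF2B3, EIF4A3, EIF4E, EIF4G1, EIF4H and EIF5A2), EIF4B fell, and EIF1B, EIF3F and EIF3K had no call. The E-box thus lay in 6 of 20 members with an entry that rose, 1 of 5 that fell and 3 of 18 without a call. Insulin calls were not split by the E-box over all tested genes, so no link between the motif and the rise is drawn. The amino acid response motif TGATGNAA, sought on both strands, was found in EIF4E3 alone (2.22% of the 45 members). It lay in 4.46% of all symbols (3.62% of all entries) and 2.94% of the tested genes with an entry. These matches are descriptions of the windows and were not tested.

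**Figure D3:**
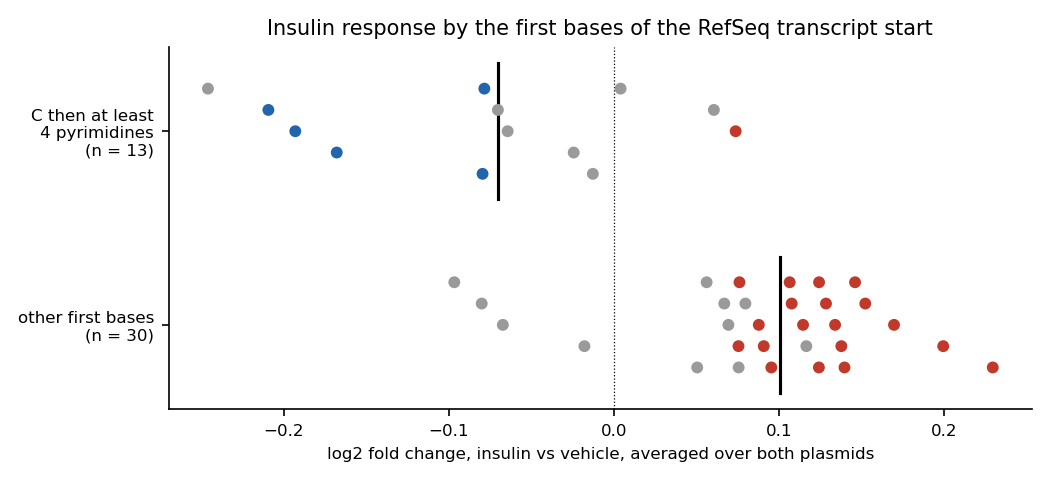
Log2 fold change of insulin against vehicle for the 43 tested members with a RefSeq entry, split by whether a start opens with C and at least 4 pyrimidines (top, 13 members) or not (bottom, 30 members). Each point is 1 member, colours mark members higher (red), lower (blue) or not called (grey) at an adjusted p under 0.05, and black lines are medians of -0.07 and 0.10. All 5 blue points lie in the upper row and 19 of the 20 red points in the lower row.

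The insulin response was then taken within each plasmid, where 3 libraries stood on each side. Without the Viperin plasmid (Insulin against Control), 9 of 52 members rose and 4 fell at an adjusted p under 0.05 in edgeR, against 2.53% and 2.96% of all genes, and at 0.001, 2 rose and 3 fell, against 0.404% and 0.777%. The 4 that fell were EEF1A1 (log2 fold change -0.22 ± 0.03), EIF4B (-0.22 ± 0.04), EEF2 (-0.17 ± 0.03) and PABPC1 (-0.17 ± 0.04). The 9 that rose were EIF5A2 (0.28 ± 0.05), EIF4G2 (0.20 ± 0.03), EIF5 (0.17 ± 0.04), EIF2B1 (0.16 ± 0.04), EIF2S1 (0.15 ± 0.04), EIF4A3 (0.15 ± 0.04), EIF3J (0.15 ± 0.04), EIF3B (0.14 ± 0.04) and EIF2B2 (0.14 ± 0.05). EEF1A1, EEF2, EIF4B, EIF4G2, EIF5 and EIF5A2 kept their call without any single library, while only 3 members rose without Insulin library 2. With the Viperin plasmid (Viperin + Insulin against Viperin), 7 members rose and 3 fell, against 2.17% and 2.39% of all genes, and at 0.001, 0 rose and 3 fell, against 0.408% and 0.703%. EIF4B (-0.20 ± 0.04), EEF2 (-0.17 ± 0.03) and EEF1A1 (-0.16 ± 0.03) fell, and they kept the call without any single library. EIF2B4 (0.18 ± 0.05), EIF2B2 (0.15 ± 0.05), EIF4G1 (0.14 ± 0.04), EIF5 (0.14 ± 0.04), EIF4G2 (0.14 ± 0.03), EIF5A (0.13 ± 0.04) and EIF2S2 (0.12 ± 0.04) rose. None of these 7 kept its call in every leave-out, and the count was 2 without Viperin library 2, 3 without Viperin + Insulin library 1 or 3, and 4 without Viperin library 1 or 3. The count that fell was 5 without Control library 1 or 3.

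Whether the plasmid altered the insulin response was tested as the difference between these fold changes. No member passed in edgeR, and none of the 23041 genes did (0.00% in each direction). DESeq2 and limma-voom also called 0 members. At an unadjusted p under 0.05 there were 2 of 52 members and 5.63% of all genes. Those members were EIF2B1, whose response with the Viperin plasmid was lower by 0.14 ± 0.06 on the log2 scale (adjusted p = 0.762 in edgeR), and EIF5A2, lower by 0.15 ± 0.07 (adjusted p = 0.869 in edgeR). A call in 1 plasmid and not in the other is therefore no sign of a different response at this depth and number of libraries.

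**Figure D4:**
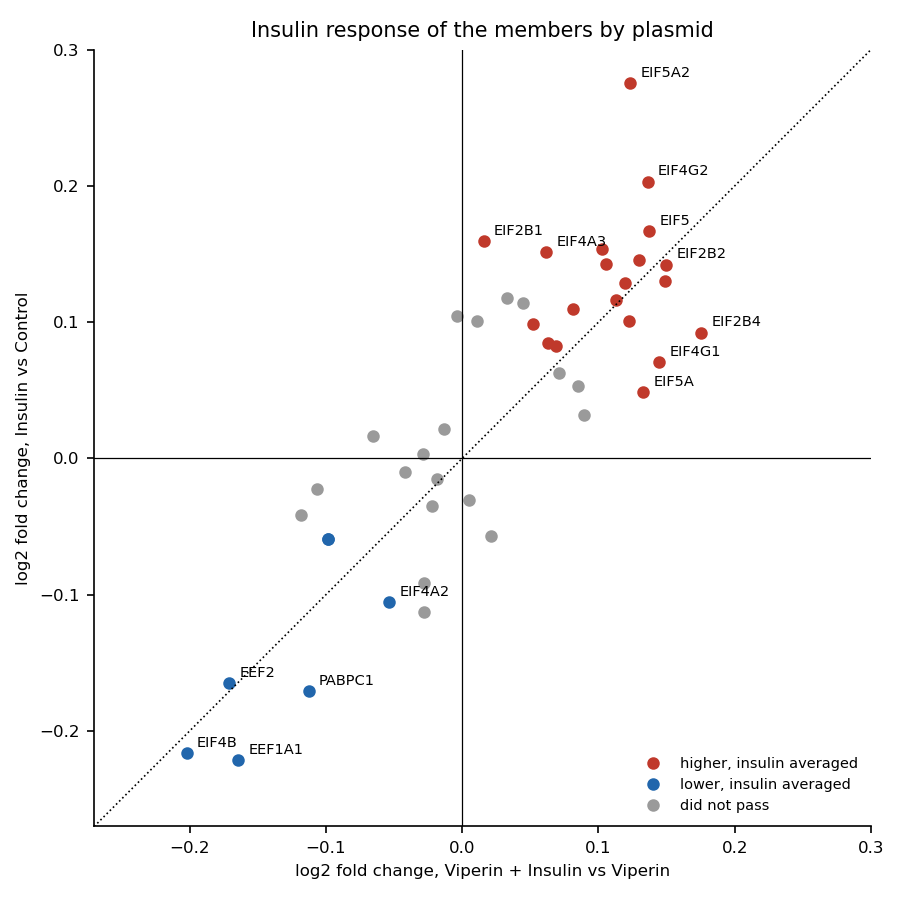
Log2 fold change with insulin in cells with the Viperin plasmid (horizontal) and with empty vector (vertical) for the 46 tested members with over 700 counts in every library. Colours give the call for insulin averaged over both plasmids, and the dotted line marks equal responses. EIF4B, EEF1A1, EEF2 and PABPC1 lie below 0 on both axes, and no member differed between the axes at an adjusted p under 0.05.

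The Viperin plasmid was set against empty vector over both insulin states, again with 6 libraries on each side. At an adjusted p under 0.05 in edgeR, 14 of 52 members fell (26.9%) and 2 rose (3.85%), against 3.49% and 4.47% of all genes. The share that rose was thus no larger than over all genes. The median log2 fold change was -0.05 over the members and 0.00 over all genes (0.0012). The members that fell changed by -5.21% to -9.39%, and for no member did the 6 Viperin plasmid libraries lie wholly on 1 side of the 6 empty vector libraries, against 1.40% of all genes wholly higher and 0.655% wholly lower. At an adjusted p under 0.001, 2 members fell (3.85%) and 1 rose (1.92%), against 0.716% and 1.34% of all genes, and 1 rise in 52 is close to that share. Of the 16 calls, 7 held without any single library: EIF5B, EIF1AX, EIF6, EIF5A, EEF1B2 and EEF1A1 among those that fell and EIF4A2 among those that rose. The count that fell was 7 without Insulin library 2, 8 without Viperin + Insulin library 2 and 9 without Insulin library 3 or Viperin library 3, and it was 22 once a trend on GC content and length was removed. The stromal genes checked in these cells moved with the plasmid as well. Of the 11 listed, 7 were higher and 1 lower with the Viperin plasmid, and their summed level was 6377 to 6663 CPM with it and 5595 to 6146 CPM with empty vector, with DES near 0 throughout. The mitochondrial share of counts was lower with the plasmid too, at 4.28% to 4.52% in Viperin + Insulin against 5.14% to 5.18% in Insulin, and at 4.82% to 5.34% in Viperin against 5.59% to 6.64% in Control. The part of either in the members' changes was not tested.

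EIF5B, the GTPase that joins the ribosomal subunits, had 375, 376 and 386 CPM in Viperin + Insulin and 369, 363 and 338 CPM in Viperin, against 413, 413 and 409.7 CPM in Insulin and 367, 403 and 419 CPM in Control. Only Control library 1 lay within the range of the Viperin plasmid libraries, and the log2 fold change was -0.14 ± 0.03 (adjusted p = 2.27e-04 in edgeR). EIF1AX, the X-linked eIF1A that works with EIF5B, had 82.8, 81.8 and 86.3 CPM in Viperin + Insulin and 86.5, 85.6 and 79.4 CPM in Viperin. In Insulin it had 95.7, 96.3 and 95.8 CPM, and in Control 85.5, 91.2 and 90.7 CPM. Here too Control library 1 was the one that overlapped (log2 fold change -0.14 ± 0.03, adjusted p = 4.49e-04 in edgeR). EIF5A fell by 7.51% (adjusted p = 0.00208 in edgeR), with 256, 256 and 252 CPM in Viperin + Insulin and 229.8, 227 and 240.0 CPM in Viperin, against 262, 278 and 262 CPM in Insulin and 246, 260.0 and 269.7 CPM in Control. EIF6 fell by 8.43%, EEF1B2 by 7.21% and EEF1A1 by 6.70% (adjusted p = 0.00247, 0.00582 and 0.00212 in edgeR). EIF5A and EIF6 therefore rose with insulin and fell with the Viperin plasmid, as did EIF3B, EIF3J, EIF3M, EIF2S1 and EIF4G1. The insulin call of EIF5A was lost without Insulin library 2. EEF1A1 fell with both, as did EEF1D and EIF3D.

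Smaller falls with the plasmid were spread over the other families. In eIF3, 5 of 14 fell (EIF3J, EIF3B, EIF3G, EIF3D and EIF3M, changes of -5.21% to -6.59%), and EIF4G1, EEF1D and EIF2S1 fell by 6.17%, 6.17% and 5.52%. None of these calls held in every leave-out. No eIF2B member passed. EIF4A2 was the member that rose most clearly. It had 502, 477 and 488 CPM in Viperin + Insulin and 486, 522 and 514 CPM in Viperin, against 449.7, 435 and 442 CPM in Insulin and 483, 481 and 463 CPM in Control. With insulin the plasmid groups did not overlap, and with vehicle they did not overlap either, but Viperin + Insulin library 2 was below Control libraries 1 and 2 (log2 fold change 0.12 ± 0.02, adjusted p = 5.13e-04 in edgeR). Of all genes, 11.8% lay wholly higher with the plasmid under insulin and 8.16% under vehicle. Several small nucleolar RNAs lie within EIF4A2, and 10.5% of its exonic bases are shared with other gene models. EIF2S3 rose by 5.61% with an adjusted p of 0.0388 in edgeR, which was lost when any 1 of 9 libraries was left out.

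**Figure D5:**
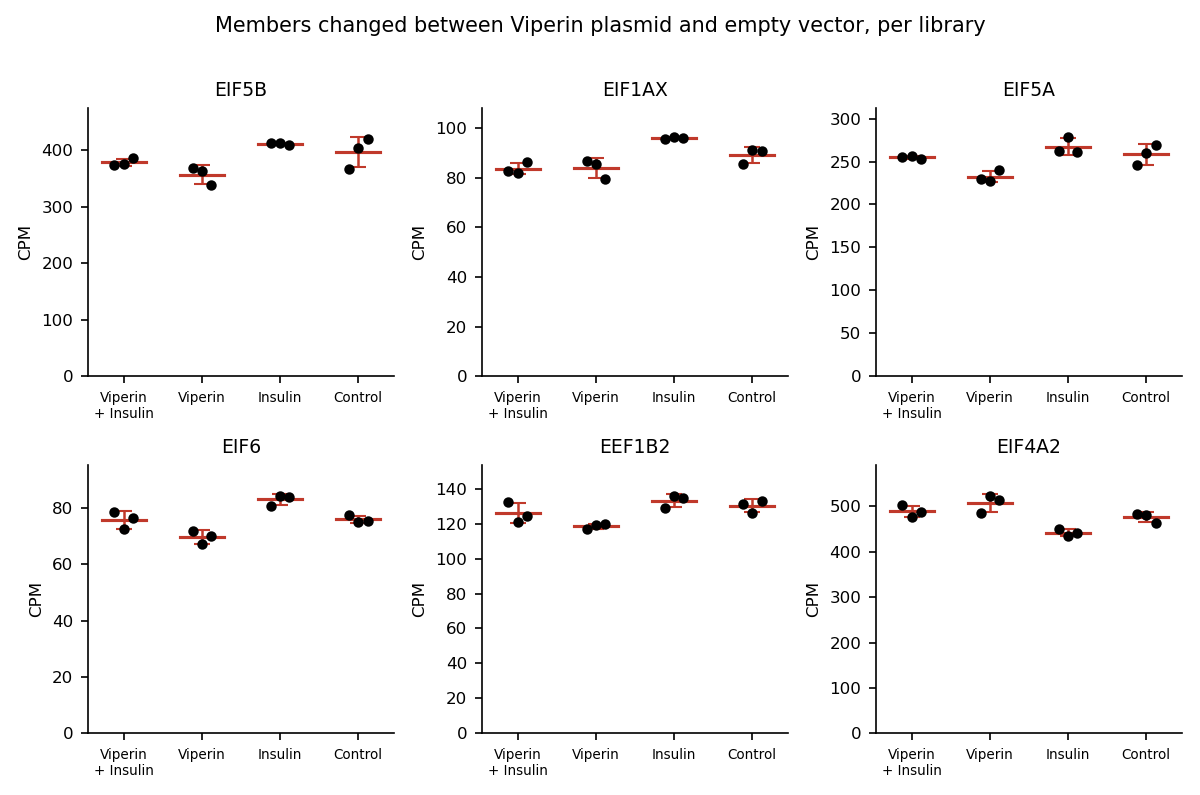
TMM-scaled CPM per library (black points, 3 per group) with group means and SDs (red) for the 6 members among EIF5B, EIF1AX, EIF5A, EIF6, EEF1B2 and EIF4A2 that changed between Viperin plasmid (Viperin + Insulin and Viperin) and empty vector (Insulin and Control). Each vertical axis starts at 0. The first 5 are lower with the plasmid and EIF4A2 is higher, and in every panel the 6 libraries on each side overlap at least once.

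Within each insulin state the plasmid gave fewer calls. With vehicle (Viperin against Control) EIF5A (log2 fold change -0.15 ± 0.04), EIF5B (-0.15 ± 0.04), EEF1B2 (-0.14 ± 0.04), EEF1A1 (-0.13 ± 0.03) and EIF4G1 (-0.13 ± 0.04) fell, 5 of 52 members, and 0 rose, against 1.04% and 1.25% of all genes in edgeR. At 0.001 there were 0 either way, against 0.117% and 0.187% of all genes. The 3 Viperin libraries lay wholly below the 3 Control libraries for 13 members (25.0%), against 7.63% of all genes. They lay wholly above for 3 members (5.77%), against 8.16% of all genes. The 5 calls depended on the fit. None held in every leave-out, and 0 remained when only the 6 libraries compared were fitted. Leaving out Control library 3 or Viperin library 3 gave 1, 2 without Viperin library 1 or 2, 3 without Insulin library 3 or Viperin + Insulin library 1 or 2, and 8 without Control library 1. With insulin (Viperin + Insulin against Insulin) EIF1AX fell (-0.20 ± 0.04, adjusted p = 0.00152 in edgeR) and EIF4A2 rose (0.15 ± 0.04, adjusted p = 0.00783 in edgeR). That is 1 of 52 members each way (1.92%), against 0.990% and 2.09% of all genes, and such counts of calls are close to those shares. At 0.001 there were 0 either way, against 0.0998% and 0.373%. For both genes the 3 libraries of each group did not overlap. Wholly lower with the plasmid were 18 of 52 members (34.6%), against 9.88% of all genes. Wholly higher were 5 members (9.62%), against 11.8% of all genes. At an unadjusted p under 0.05 in edgeR, in either direction, there were 38.5% of the members and 14.2% of all genes. EIF1AX held without any single library, whereas EIF4A2 was lost without Insulin library 2 or 3 or Viperin + Insulin library 1. The count of members that fell was sensitive here: it was 13 when only the 6 libraries compared were fitted, 12 with the GC and length trend removed, 8 without Control library 1 and Viperin library 3 together, and 2 to 6 without Control library 1 or 3, Insulin library 1 or Viperin library 1 or 3.

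Genes that act around these factors were read from lists chosen by function. Of 19 regulators of eIF2, eIF4E and eEF2, 3 rose and 1 fell with insulin over both plasmids, where 5.76% of all genes rose and 5.97% fell. PDCD4, a repressor of the eIF4A helicase, averaged 111 ± 0.155 CPM in Viperin + Insulin and 99.3 ± 6.75 CPM in Insulin, against 133 ± 9.22 CPM in Viperin and 122 ± 7.53 CPM in Control (SD, n = 3 libraries each). It fell by 0.28 on the log2 scale (adjusted p = 1.08e-07 in edgeR), a larger change than that of any called member. PPP1R15B, which directs a phosphatase to eIF2 alpha, rose by 0.16 ± 0.03 on that scale, the eIF5-mimic BZW1 by 0.12 ± 0.03, and LARP1, which binds the caps of terminal oligopyrimidine mRNAs, by 0.08 ± 0.02. Among 19 other initiation, termination and recycling factors, 8 rose and none fell at an adjusted p under 0.05 in edgeR. The ribosome recycling factor ABCE1 rose by 0.19 ± 0.03, the rescue factor PELO by 0.19 ± 0.04, and the release factors ETF1 and GSPT1 by 0.17 ± 0.02 and 0.16 ± 0.03. Of 18 further elongation factors and modifying enzymes, DPH2 and DPH7, which build the diphthamide of eEF2, and DOHH, which completes the hypusine of eIF5A, rose, and 1 gene fell. That was EEF1A2, the muscle and neuron paralog of EEF1A1, with 69.3 ± 1.83 CPM in Viperin + Insulin and 65.3 ± 2.55 CPM in Insulin, against 72.2 ± 4.20 CPM in Viperin and 77.0 ± 1.79 CPM in Control. Its log2 fold change was -0.15 ± 0.03 (adjusted p = 2.67e-04 in edgeR). Of 9 mitochondrial translation factors, GFM1 and MTRF1 rose and the others did not pass.

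With the Viperin plasmid, where 4.47% of all genes rose and 3.49% fell, the same lists gave few calls, and 1 call in a list of 18 or 19 is close to those shares. Of the regulators PDCD4 (0.14 ± 0.03) and the PERK kinase EIF2AK3 (0.11 ± 0.03) rose, opposite in direction to the insulin change for PDCD4. Of the other initiation and recycling factors 4 of 19 fell, GSPT1 by 0.13 ± 0.03 and DHX29, a helicase for structured leaders, by 0.11 ± 0.03 on the log2 scale, with PABPC4 and MCTS1. GTPBP2, a ribosome rescue GTPase, rose by 0.20 ± 0.04 (adjusted p = 3.47e-05 in edgeR), and EEFSEC, the selenocysteine elongation factor, fell by 0.31 ± 0.07 (adjusted p = 0.00218 in edgeR) with means of 6.35 CPM in Viperin + Insulin, 6.07 CPM in Viperin, 7.39 CPM in Insulin and 8.06 CPM in Control. These were the calls among the 18 further elongation factors and modifying enzymes. Of the 9 mitochondrial translation factors MTIF2 fell by 0.09 ± 0.03 on the log2 scale (adjusted p = 0.0348 in edgeR, up to 0.113 with single libraries left out) and the other 8 did not pass. The median log2 fold change of the 9 was -0.09.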

How the data were processed

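RNA-seq was read from 12 libraries of 12Z cells. The authors ran cutadapt and Trim Galore for trimming, FastQC for quality and STAR for alignment to hg38, and deposited STAR's raw gene counts, not normalized, in 1 unstranded and 2 strand-specific columns. The versions of these tools: not given in the sources used here. Since the methods name a GENCODE release by a mouse label (vM16), names came from GENCODE 44, which holds 60357 of the 60617 IDs. Counts in column 4, the reverse strand, were used, as in the methods. Lines for unmapped, multimapping, unassigned and ambiguous reads (ambiguous 3.63% to 3.93%) stayed out of library sizes.

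Genes averaging 1 count or more over the libraries (23041) were retained, scaled by TMM and fitted with 4 group means in edgeR 4.0.16 (R 4.3.3, robust quasi-likelihood test, prior count 2, Benjamini-Hochberg adjustment over all genes). Members were called at an adjusted p under 0.05, with 0.001, the threshold of the methods, beside it. The methods used DESeq2, which was run as an alternative (1.42.0, with limma 3.58.1 for voom). The averaged comparisons pool both plasmids or both insulin states. The fit was tested on simulated data. Members and lists were chosen with earlier results of these data known. Named are members called in any of the 7 comparisons, the most abundant of each role group, the paralog sets, the members around the filter, and up to 4 called genes of a list; LARP1, MTRF1, DOHH, DPH2, DPH7, GFM1, EIF2AK3, DHX29, PABPC4, MCTS1, GTPBP2, MTIF2 and EEFSEC are named by that rule or to complete a count of 5 or fewer. Alternatives were other scalings, filters, tests, thresholds and strands, a replicate block, each library left out, and, chosen after seeing the data, Control library 1 with Viperin library 3 left out and a GC and length trend removed (loess, span 0.5). Transcript starts came from RefSeq on GRCh38.p14. Tables were joined in Python 3.11.15 (pandas 2.3.3, numpy 2.4.6), and figures drawn in matplotlib 3.10.9.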

Additional observations from a re-analysis of the deposited data

How the results depend on the processing

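None of the members called in a comparison changed direction there under any alternative. Members without a call did change sign in leave-outs, such as EIF3CL for insulin averaged (log2 fold change -0.23 to 0.32). For insulin averaged over both plasmids, 21 members rose and 7 fell, with 15 to 22 and 4 to 7 when single libraries were left out and 7 and 4 at an adjusted p under 0.001. For Insulin against Control (9 up, 4 down) the leave-out ranges were 3 to 10 and 3 to 5, and 2 rose at 0.001. For Viperin + Insulin against Viperin (7 up, 3 down) they were 2 to 9 and 3 to 5. There, 0 rose at 0.001, 12 rose with the GC and length trend removed, and 5 fell with limma-voom, with only the groups compared, and without Control library 1 and Viperin library 3. For the Viperin plasmid averaged over both insulin states (2 up, 14 down) the ranges were 1 to 3 and 7 to 16. Up, 1 remained at 0.001, with RLE size factors, no filter, unstranded counts, the replicate block, both libraries left out or the trend removed. Down, 2 remained at 0.001 and 22 were called with the trend removed. For Viperin against Control (0 up, 5 down) the ranges were 0 to 0 and 1 to 8, with 0 down at 0.001 and 0 with only the groups compared. For Viperin + Insulin against Insulin (1 up, 1 down) the ranges were 0 to 1 and 1 to 6. At 0.001 both counts were 0, and 2 rose with only the groups compared. The fallers numbered 6 at an adjusted p under 0.1, 4 with RLE size factors, 4 with RSAD2 and mitochondrial genes out of the library sizes, 2 with DESeq2, 4 with limma-voom, 4 with no filter, 3 with filterByExpr, 4 with unstranded counts, 13 with only the groups compared, 8 without both libraries and 12 with the trend removed. The cause was not tested. For the difference of the insulin responses the counts were 0 throughout. The members' median log2 fold change ranged over the leave-outs from 0.0548 to 0.0741 for insulin averaged, 0.0501 to 0.0707 for Insulin against Control, 0.0232 to 0.0373 for Viperin + Insulin against Viperin, -0.054 to -0.0432 for the plasmid averaged, -0.0526 to -0.0317 for Viperin against Control, -0.0689 to -0.045 for Viperin + Insulin against Insulin and -0.0341 to -0.0059 for the difference.

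Libraries with the same number did not deviate together (r from -0.158 to 0.12 over 18 pairs, mean -0.027), so a number is read as a name only. The mean over the other 36 pairs (0.014) is no separate comparison, because deviations within a group sum to 0. With the replicate block, insulin averaged gave 18 up and 6 down, and the Viperin plasmid averaged gave 1 up and 10 down. Of the 8 members with under 400 counts in every library, depth limits EIF4E3, while EEF1G, EIF4A1 and the near-identical copies are limited by sequence shared with other gene models as well.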
